A study of Mus musculus with 6 samples.

Results

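Ucn3, Prlr, Trpm5, Ero1b and Esrrg are 5 genes that mark or serve the mature state of the insulin-secreting beta cell of the pancreatic islet. They were selected by name and are 5 of the 34945 gene rows of the deposited count table. All 5 had a row and passed the filter on low counts that left 14073 genes for testing. Levels are given in CPM, counts scaled to a common library size, in each of 6 mouse islet libraries.

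The study asks what extra Jag1, a membrane-bound ligand of Notch receptors, does when beta cells make it. The control group (3 libraries, Control 1 to 3) had the genotype RIP-Cre+, Rosa26-rtTA+ and tetO_Jag1-, and the Jag1 group (3 libraries, Jag1 1 to 3) had RIP-Cre+, Rosa26-rtTA+ and tetO_Jag1+. RIP-Cre is Cre recombinase under the rat insulin promoter, rtTA is an activator that needs doxycycline, and every animal of both groups drank doxycycline for 8 weeks before islets were isolated, so the controls share the drug and both driver alleles. RNA came from whole islets, age and strain background are not in the labels, and the labels do not state that each library is a separate mouse, so the p-values measure the spread between libraries, which may be technical.

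Beta cells are born functionally immature and acquire glucose-regulated insulin secretion after birth. Ucn3 encodes urocortin 3, a peptide that mature mouse beta cells release with insulin and that acts on CRF type 2 receptors of neighbouring delta cells, which answer with somatostatin. Prlr encodes the prolactin receptor, a cytokine receptor that signals through Jak2 and Stat5 and is known for beta cell growth in pregnancy. Trpm5 encodes a calcium-activated cation channel of the plasma membrane. Ero1b encodes an oxidase of the endoplasmic reticulum that helps form the disulfide bonds of folding proteins, proinsulin among them, and Esrrg encodes an orphan nuclear receptor that binds genes of oxidative metabolism.

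No difference between Jag1 and control islets was detected in any of the 5 genes. Ucn3, Prlr, Trpm5 and Ero1b had mean levels 0.833 to 0.916 times those of control in the fit, and Esrrg 0.999 times. In each gene the range of the Jag1 libraries overlapped the range of the control libraries. In edgeR's quasi-likelihood test, with p-values adjusted over all genes by Benjamini-Hochberg, 0 of the 5 were called at an adjusted p under 0.05, against 0.0213% of all genes tested (3 of 14073). In single directions, 0 of 5 were called lower, against 0.00711% of all genes, and 0 of 5 higher, against 0.0142%. At an unadjusted p under 0.05 it was also 0 of 5, against 4.97% of all genes, and in 0 of 5 were the groups separate, against 10.5%. DESeq2 called 0 of the 5 as well, against 0.256% of the genes it gave an adjusted p. With so few calls in the whole table, these shares do not set the 5 genes apart. In 5 of 5 genes the 95% interval of the fold change lay within 2-fold in either direction, as it did in 80.4% of all genes. In the 10 lists of pathway, maturity and immaturity genes described beside them, edgeR and DESeq2 each called 0 genes. The shares over all genes were 0.0213% and 0.256%, so these lists are not set apart by it. In the lists only Aldh1a3 and Birc5 had an unadjusted p under 0.05 in edgeR, against 4.97% of all genes.

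**Figure D1:**
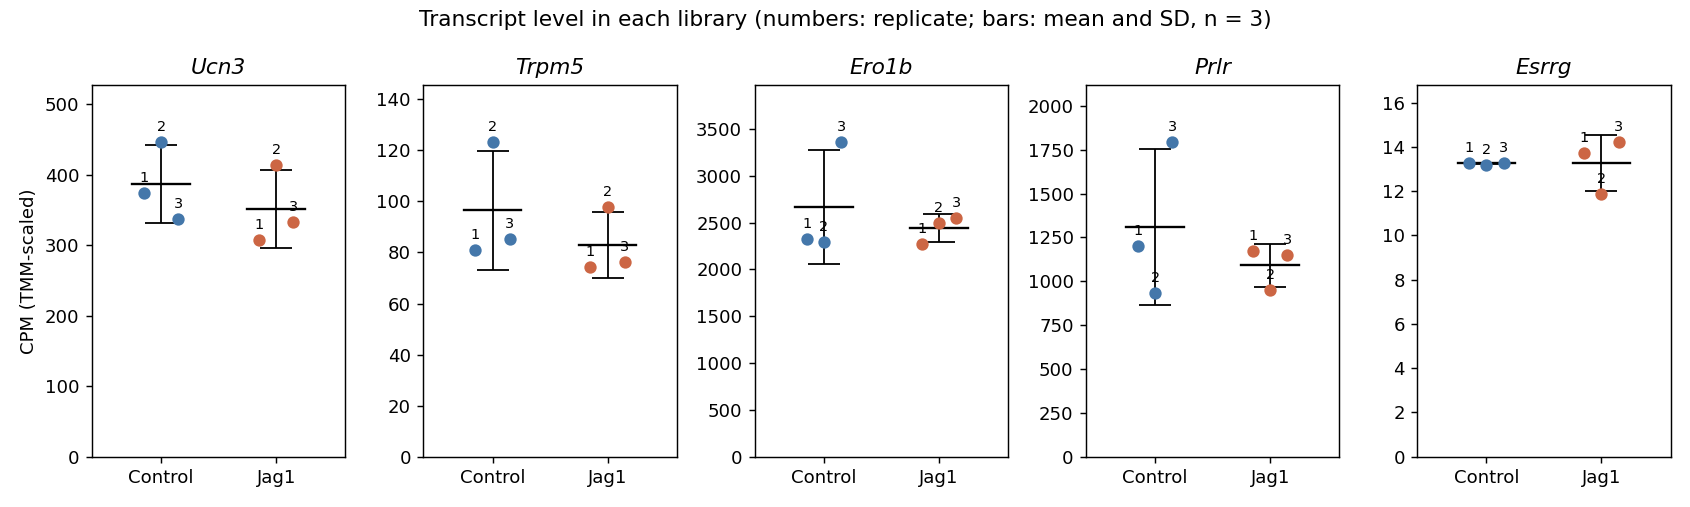
Level of each gene in each library in CPM (y axis, starting at 0, a separate scale for each gene) for control and Jag1 islets, with points numbered by library and bars for the mean and SD of 3 libraries. The groups overlap in every panel, Control 2 and Jag1 2 are the high libraries for Ucn3 and Trpm5, and Control 3 is the high library for Ero1b and Prlr.

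The libraries held 14283469 to 34348729 estimated counts. Jag1 itself averaged 4.10 ± 0.154 CPM over the controls and 756 ± 204 CPM with the tetO_Jag1 allele (SD, n = 3 each), which matches the labels. The 10 defining beta cell genes, Ins1 and Ins2 included, took 13.2% to 21.5% of the counts and none was at 0 in a library. Acinar cell genes, which code for digestive enzymes, varied within both groups: 33 measured markers took 0.619% to 15.2% of control counts and 1.24% to 15.4% of Jag1 counts, with none at 0. Of the 9 alpha cell markers 8 had fold changes below 1, with a median log2 fold change of -0.58 and no adjusted p under 0.05 in edgeR's quasi-likelihood test. Fold changes above 1 were found for 10 of 10 stellate, pericyte and fibroblast markers, 9 of 9 endothelial, 12 of 14 duct and 8 of 8 immediate early genes, with medians of 0.60, 0.23, 0.35 and 0.80. The first of these was -0.39 without Control 1 and Jag1 3. In these 4 lists edgeR called 0 genes, against 0.0213% of all genes, and DESeq2 called 1, 0, 1 and 3, against 0.256%. An unadjusted p under 0.05 in edgeR's quasi-likelihood test, in either direction, was found for 2 of 10, 1 of 9, 6 of 14 and 7 of 8. It was found for 5 of 9 alpha cell markers and 4.97% of all genes. The alpha cell and duct medians each moved by at least their within-group SD over libraries in 1 alternative fit. In the other 16 fits they stayed within it. The part of these lists in the values of the 5 genes was not tested. In whole islets, fewer cells of a type and less RNA per cell cannot be told apart.

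Upstream sequences are shown for the 4 genes with a high library in common, Control 2 for Ucn3 and Trpm5 and Control 3 for Ero1b and Prlr. They are the 250 bases before the promoter table's first start site for each gene in RefSeq on build GRCm38.p6, read 5′ to 3′ on the gene's strand, and capitals mark the core motif of RBPJ, the DNA-binding partner of activated Notch (TGGGAA, searched on both strands, here found as its reverse complement). Ucn3 is on the minus strand at chr13:3945350-3945599, Trpm5 on the minus strand at chr7:143094643-143094892, Ero1b on the plus strand at chr13:12565633-12565817, and Prlr on the plus strand at chr15:10176988-10177237. For Ero1b, whose start site there is at 12565883, the first 185 of the 250 bases are printed, since the RefSeq gene begins within the window.
Ucn3: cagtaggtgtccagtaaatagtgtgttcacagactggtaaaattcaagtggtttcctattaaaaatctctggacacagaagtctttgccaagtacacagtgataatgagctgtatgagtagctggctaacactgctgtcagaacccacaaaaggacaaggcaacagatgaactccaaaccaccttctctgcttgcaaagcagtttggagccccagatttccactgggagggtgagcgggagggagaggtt
Trpm5: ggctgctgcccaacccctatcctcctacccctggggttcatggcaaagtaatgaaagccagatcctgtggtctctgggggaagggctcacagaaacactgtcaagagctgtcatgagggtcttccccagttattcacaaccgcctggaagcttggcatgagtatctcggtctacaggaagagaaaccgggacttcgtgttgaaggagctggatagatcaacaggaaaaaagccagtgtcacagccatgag
Ero1b: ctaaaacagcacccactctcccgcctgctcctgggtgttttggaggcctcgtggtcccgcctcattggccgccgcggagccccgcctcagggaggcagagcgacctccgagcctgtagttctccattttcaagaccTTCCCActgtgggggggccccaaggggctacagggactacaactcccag
Prlr: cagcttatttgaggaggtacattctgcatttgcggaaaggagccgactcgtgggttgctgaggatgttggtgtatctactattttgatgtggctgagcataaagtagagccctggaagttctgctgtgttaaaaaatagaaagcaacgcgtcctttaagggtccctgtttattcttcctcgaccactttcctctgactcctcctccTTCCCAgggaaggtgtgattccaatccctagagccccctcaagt

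All 5 genes had a RefSeq entry, with 10 start-site windows among them. The RBPJ core was present in 2 of the 10 windows, 114 to 109 bases before the Ero1b start and 44 to 39 bases before the first Prlr start, and 21.6% of 32851 RefSeq promoter windows hold it. The STAT5 motif TTCNNNGAA, which Prlr signalling uses, occurred in 1 window, 110 to 102 bases before a Prlr start at position 10223906 of chromosome 15, against 7.02% of all windows. Neither the ERR core AAGGTCA, the site of the Esrrg family (4.08% of windows), nor the MAF core TGCTGAC (3.81%) was found in any of the 10. The searched motifs do not overlap each other in these windows. The match of letters is a description and shows no binding.

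Ucn3 lies on chromosome 13 at 3940688 to 3945349, minus strand (GENCODE vM21, GRCm38), with 1 annotated transcript and no sequence match to another gene. It stood at 375, 447 and 338 CPM in Control 1 to 3 and at 307, 414 and 333 CPM in Jag1 1 to 3. Control 2 and Jag1 2 were the highest in their groups, and 2 of the 3 Jag1 libraries lay below all 3 controls, while Jag1 2 lay above 2 of them. The means were 387 ± 55.6 CPM in control and 351 ± 55.4 CPM in Jag1 islets (SD, n = 3). The log2 fold change was -0.14 (SE 0.15, 95% interval -0.47 to 0.19), with an adjusted p of 0.960 in edgeR's quasi-likelihood test (Benjamini-Hochberg). As a fold the interval ran from 0.724 to 1.14. An exact 2-sided permutation test over the libraries gave p = 0.5, where 3 against 3 cannot go below 0.1.

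The other measured members of the urocortin system were the receptors Crhr1 and Crhr2 and the delta cell peptide Sst. All 3 of the 3 tested had fold changes below 1, 0 of 3 were called, and their median log2 fold change was -0.37, against -0.0041 over all genes tested. The median was -0.75 without Jag1 2. Sst, the somatostatin gene, was at 3431, 4398 and 3241 CPM in control and 3147, 2821 and 2571 CPM in Jag1 islets. The Sst groups did not overlap, as was the case in 10.5% of all genes. Its log2 fold change of -0.37 (SE 0.17) had an adjusted p of 0.955 in edgeR's quasi-likelihood test (Benjamini-Hochberg). Crhr2, the receptor that urocortin 3 binds, was near the detection limit, with 1.55 ± 0.471 CPM in control and 0.870 ± 0.396 CPM in Jag1 islets (SD, n = 3). Crhr1 had 0.633 ± 0.510 and 0.474 ± 0.208 CPM. Sst and Crhr2 are also delta cell markers, and of 7 delta and gamma cell markers 5 had fold changes below 1, with a median log2 fold change of -0.36. Among them Rbp4 had -0.36 (SE 0.11, groups separate) and Hhex -0.37 (SE 0.19), with 0 of 7 called. The part of delta cell content in the Sst and Crhr2 values was not tested. The other ligands of the family were almost undetected: over the 6 libraries Crh and Ucn had 0 counts and Ucn2 had 5, and the binding protein gene Crhbp had 39. A count of 3, the limit that 0 counts allow, is 0.0853 to 0.204 CPM per library.

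Prlr, on chromosome 15 at 10177238 to 10349180, plus strand, had the widest spread of the 5 genes. It stood at 1199, 931 and 1796 CPM in Control 1 to 3 and at 1174, 949 and 1150 CPM in Jag1 1 to 3. Control 3 lay above every other library and Control 2 below every other, so the control range, 1.93-fold from lowest to highest, held all 3 Jag1 libraries. The means were 1309 ± 443 CPM in control and 1091 ± 124 CPM in Jag1 islets (SD, n = 3). Its log2 fold change of -0.26 (SE 0.22, 95% interval -0.76 to 0.23) had an adjusted p of 0.955 in edgeR's quasi-likelihood test (Benjamini-Hochberg), and the exact 2-sided permutation p was 0.5. The interval as a fold was 0.592 to 1.17. Without Control 3 the sign turned, to a log2 fold change of 0.034. The gene count sums 12 annotated transcripts, 7 of them coding, so the long and short receptor forms are not separated. The protein-coding Gm21973 overlaps 203 bp of Prlr exons on the same strand, and 27 genes in all share sequence with Prlr, so the division of shared reads leaves some uncertainty in its level.

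Of 7 tested genes of prolactin signalling, which include the related growth hormone receptor, 3 had fold changes below 1 and 4 above, with a median log2 fold change of 0.00034 and 0 called. Cish, a feedback inhibitor that Stat5 induces, was at 124 ± 10.03 CPM in control and 132 ± 26.4 CPM in Jag1 islets. The log2 fold change was 0.089 for Cish, 0.29 for the inhibitor Socs3, -0.13 for the transcription factor Stat5a and -0.075 for the growth hormone receptor Ghr. Socs1, with 57 counts in all, was not tested. Of 7 islet genes known to respond to prolactin, 4 had fold changes below 1, 3 above and 0 were called. Their median log2 fold change was -0.051, and it was 0.042 without Control 1 and 0.037 without Control 3. Tph1, which makes serotonin in beta cells under prolactin, was at 384, 281 and 477 CPM in control and 322, 382 and 328 CPM in Jag1 islets. Its highest library, Control 3, and its lowest, Control 2, were those of Prlr, and the groups overlapped. Among the Jag1 libraries the order was the reverse, with Jag1 2 the highest for Tph1 and the lowest for Prlr. The paralogue Tph2 had a log2 fold change of 0.21 (SE 0.14). Birc5 and Foxm1, both cell division genes, did not overlap between groups, at 1.91 ± 0.524 against 1.000 ± 0.232 CPM and 2.48 ± 0.171 against 1.53 ± 0.430 CPM. They are the 2 of 7 with separate groups, against 10.5% of all genes, and had low counts, 14 to 45 and 22 to 50 a library. Their adjusted p was 0.955 in edgeR's quasi-likelihood test (Benjamini-Hochberg).

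Trpm5, on chromosome 7 at 143069153 to 143094642, minus strand, was at 81.1, 123 and 85.3 CPM in Control 1 to 3. The Jag1 libraries were at 74.5, 98.0 and 76.3 CPM. Control 2 and Jag1 2 were again the high libraries, and Jag1 2 lay above 2 of the 3 controls. Means were 96.6 ± 23.3 and 82.9 ± 13.1 CPM (SD, n = 3), and the log2 fold change was -0.22 (SE 0.17, 95% interval -0.61 to 0.17, or 0.656- to 1.12-fold). Its adjusted p was 0.955 in edgeR's quasi-likelihood test (Benjamini-Hochberg), and the exact permutation p was 0.5. Without Control 2 the log2 fold change was -0.0029. Tssc4 overlaps 220 bp of Trpm5 exons on the opposite strand. The libraries were stranded, but no source used here says whether counting used strand.

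Among the other TRPM channels, 5 of 7 were tested, 2 with fold changes below 1, 3 above and 0 called, with a median log2 fold change of 0.037. Trpm2 and Trpm4, cation channels also known from beta cells, gave log2 fold changes of 0.063 (SE 0.17) and 0.28 (SE 0.21). Trpm3 and Trpm7 had -0.26 (SE 0.14) and -0.23 (SE 0.13). In taste cells Trpm5 acts behind sweet receptors, gustducin and phospholipase C, and these islets held few transcripts of that route. Tas1r3 had a mean of 0.9905 CPM in control and 1.24 CPM in Jag1 islets, and Plcb2 1.26 and 0.986 CPM. Gustducin (Gnat3) had 20 counts over all libraries, Tas1r2 had 11, Tas1r1 had 1 and Calhm1 had 0. Itpr3, the calcium release channel, was well expressed at 53.5 ± 9.21 and 56.2 ± 5.70 CPM (SD, n = 3), with a log2 fold change of 0.070.

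Ero1b, on chromosome 13 at 12565874 to 12611396, plus strand, is annotated as Ero1lb in GENCODE vM21. It was at 2329, 2298 and 3365 CPM in Control 1 to 3 and at 2272, 2499 and 2548 CPM in Jag1 1 to 3. Control 3 stood above all others, and the remaining 5 libraries lay between 2272 and 2548 CPM. The means were 2664 ± 608 CPM in control and 2440 ± 147 CPM in Jag1 islets (SD, n = 3). The log2 fold change was -0.13 (SE 0.18, 95% interval -0.52 to 0.27, or 0.696- to 1.20-fold), with an adjusted p of 0.971 in edgeR's quasi-likelihood test (Benjamini-Hochberg) and an exact permutation p of 0.8. Leaving out Control 3 turned the sign, to 0.077. Its transcript shares 921 bp at 98.0% identity with the pseudogene Gm18562 and shorter matches with many genes, so its level carries some uncertainty from the division of shared reads.

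Of 12 tested genes for oxidative folding in the endoplasmic reticulum, 6 had fold changes below 1 and 6 above, with a median log2 fold change of -0.0026 and 0 called. Ero1a, the widely expressed paralogue, was at 109 ± 7.56 CPM in control and 101 ± 8.27 CPM in Jag1 islets (log2 fold change -0.10, SE 0.11). Erp44, which retains the Ero1 oxidases in the secretory pathway, had a log2 fold change of -0.096. Prdx4 and Gpx8, which use the peroxide that oxidative folding makes, had 0.18 and -0.24, with SEs of 0.26 and 0.40.

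Esrrg, on chromosome 1 at 187608791 to 188214885, plus strand, was the least variable of the 5 genes. It was at 13.28, 13.20 and 13.26 CPM in Control 1 to 3 and at 13.71, 11.86 and 14.23 CPM in Jag1 1 to 3. The Jag1 libraries lay on both sides of the controls. Means were 13.2 ± 0.0427 and 13.3 ± 1.25 CPM (SD, n = 3), with a log2 fold change of -0.00093 (SE 0.14, 95% interval -0.31 to 0.30, or 0.809- to 1.23-fold). The adjusted p was 1.00 in edgeR's quasi-likelihood test (Benjamini-Hochberg), and the exact permutation p was 1. The control libraries held 242, 240 and 195 Esrrg counts, for which counting alone gives a coefficient of variation of 6.68%. Their observed coefficient of variation was 0.322%, smaller than counting error, so the closeness of the 3 controls is not a measure of precision.

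Of the other ERR receptors and their coregulators, 4 of 6 were tested, 2 with fold changes below 1, 2 above and 0 called (median -0.065). Esrra had a log2 fold change of 0.23 (SE 0.23), the corepressor Nrip1 -0.14 (SE 0.15), and the coactivators Ppargc1a and Ppargc1b 0.0067 (SE 0.36) and -0.43 (SE 0.53). Esrrb had 6 counts and Perm1 had 35 over all libraries. Among 14 oxidative genes known as targets of ERR receptors, 12 had fold changes above 1 and 2 below, against 6902 above and 7171 below among all genes tested. Their median log2 fold change was 0.076, 0 of 14 were called, and in 3 of 14 the groups were separate (10.5% of all genes). Atp5a1, a subunit of the ATP synthase, was at 191, 202 and 198 CPM in control and 215, 223 and 219 CPM in Jag1 islets. Every Jag1 library lay above every control, with a log2 fold change of 0.15 (SE 0.097) and an adjusted p of 0.955 in edgeR's quasi-likelihood test (Benjamini-Hochberg). Sdhb, of succinate dehydrogenase, had 0.17 (SE 0.11), Cox5a of cytochrome oxidase 0.20 (SE 0.13), and the malate dehydrogenase Mdh1 0.12 (SE 0.13). All 14 had 95% intervals within 2-fold, as did 80.4% of all genes.

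Per kilobase of merged exons the 5 genes covered a wide range of abundance. Averaged over the 6 libraries, Ero1b had 384 CPM per kilobase, Ucn3 had 249.7, Prlr had 78.2, Trpm5 had 14.0 and Esrrg had 2.14. The libraries ranged from 341 to 506 for Ero1b, 208 to 303 for Ucn3, 60.7 to 117 for Prlr, 11.6 to 19.3 for Trpm5 and 1.91 to 2.29 for Esrrg. No neighbours in this order overlapped, so the order was the same in all 6 libraries. Dividing by the longest annotated transcript instead raised Ero1b to 602, Prlr to 121, Trpm5 to 21.8 and Esrrg to 2.47, left Ucn3 as it was and kept the order.

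Because the share of beta cell RNA differed between libraries, each gene was also set against the mean log2 CPM of 10 beta cell reference genes in the same library. The log2 difference between Jag1 and control was then -0.042 for Ucn3, -0.11 for Trpm5, -0.0075 for Ero1b, -0.12 for Prlr and 0.096 for Esrrg. The exact 2-sided permutation p was 0.8, 0.9, 1, 0.8 and 0.6 in that order, with a smallest possible value of 0.1. Of the 10 reference genes 7 had fold changes below 1 and 3 above 1, with a median log2 fold change of -0.088 and 0 called. At an unadjusted p under 0.05 in edgeR's quasi-likelihood test it was 2 of 10, against 4.97% of all genes. These were Rfx6 (log2 fold change -0.37, SE 0.12, groups separate) and Nkx2-2 (-0.36, SE 0.15), and Neurod1 had -0.23 (SE 0.11, groups separate). The groups were separate in 2 of 10, against 10.5% of all genes. Rfx6, Nkx2-2 and Neurod1 are islet transcription factors, and in whole islets the cells that supplied their RNA were not resolved. The reference may therefore not measure beta cells alone. The log2 fold change was 0.10 (SE 0.20) for Ins1 and 0.18 (SE 0.18) for Ins2. With Ins1 and Ins2 alone as the reference, the differences were -0.27 for Ucn3, -0.34 for Trpm5, -0.24 for Ero1b, -0.35 for Prlr and -0.13 for Esrrg.

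Across the libraries the genes varied in ways that the groups did not set. After each gene was centred on its own mean, Ucn3 and Trpm5 were close, with a root mean square difference of 0.11 in log2 CPM over the 6 libraries, and Ero1b and Prlr differed by 0.19. The second pair was less distinct, since Ero1b and Esrrg differed by 0.21 and the median gene differed from Ero1b by 0.23. The farthest pair was Trpm5 and Prlr, at 0.49. In Control 2 the centred log2 CPM was 0.29 for Ucn3 and 0.48 for Trpm5 but -0.14 for Ero1b and -0.33 for Prlr. In Control 3 it was -0.12 and -0.051 against 0.41 and 0.62, and in Control 1 it was 0.035 and -0.12 against -0.12 and 0.035. Control 2 and Control 3 thus lay on opposite sides for the 2 pairs, and Control 1 did not separate them. The within-group SD of log2 CPM was 0.36 for Prlr, larger than in 95.7% of the 8927 genes of at least 10 CPM. It was 0.28 for Trpm5 (90.1%), 0.23 for Ero1b (80.6%), 0.21 for Ucn3 (76.2%) and 0.098 for Esrrg (17.1%).

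The genes closest to each member by the same root mean square difference, over 6 libraries and 8927 genes, were Tle5 (0.037), Med25 and Cacnb3 for Ucn3, Npepl1 (0.053), Rab37 and Hspa12a for Trpm5, and Nmt2 (0.029), Cntnap2 and Slfn5 for Ero1b. For Prlr they were Arfgef3 (0.081), Ino80d and Pde10a, and for Esrrg Rbl2 (0.029), Plekha8 and Yeats2. The median difference over all genes was 0.24 from Ucn3, 0.29 from Trpm5, 0.23 from Ero1b, 0.34 from Prlr and 0.17 from Esrrg.

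The level of genes also varied with GC content and transcript length from library to library. In Control 3 the median centred log2 CPM was 0.14 for the 1 in 5 genes lowest in GC (the lowest quintile) and -0.085 for the highest quintile, while Control 2 had -0.092 and 0.089 and Jag1 2 had -0.099 and 0.14. In GC alone Jag1 1, with 0.11 and -0.099, was tilted nearly as much as Control 3. The centred values of Jag1 1 were 0.0044 for Prlr and -0.15 for Ero1b. The longest quintile stood at 0.14 in Control 3 and -0.16 in Jag1 2, but at 0.0064 in Jag1 1. Prlr, with 39.4% GC over 9900 bases, is in the lowest GC quintile and the longest quintile. Of its centred value of 0.62 in Control 3, the trend with GC and length at its composition was 0.27 and 0.34 was left. In Jag1 1 the trend was 0.11 at the composition of Prlr, and 0.068 at that of Ero1b against 0.097 in Control 3. Ucn3 (51.2% GC, 1478 bases) kept 0.28 of 0.29 in Control 2, and Trpm5 (55.1%, 4123 bases) kept 0.42 of 0.48. In Jag1 2 Ucn3 kept 0.085 of 0.18, and Trpm5 kept 0.086 of 0.15. Ero1b (44.0%, 4239 bases) kept 0.32 of 0.41 in Control 3. Esrrg (42.5%, 5373 bases) went the other way. Its centred value in Control 3 was 0.0026, the trend was 0.15 and -0.14 was left. In Control 2 its value was -0.0041, the trend was -0.084 and 0.080 was left. With each library's trend removed, a fit chosen after seeing the data, the log2 fold change between groups was -0.12 for Prlr in place of -0.26, and -0.20 for Ucn3, -0.18 for Trpm5, -0.097 for Ero1b and 0.037 for Esrrg. None was called in that fit by edgeR's quasi-likelihood test, in which 3 genes of the table were. The part of GC content and transcript length in the library pattern of the 5 genes was not tested.

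**Figure D2:**
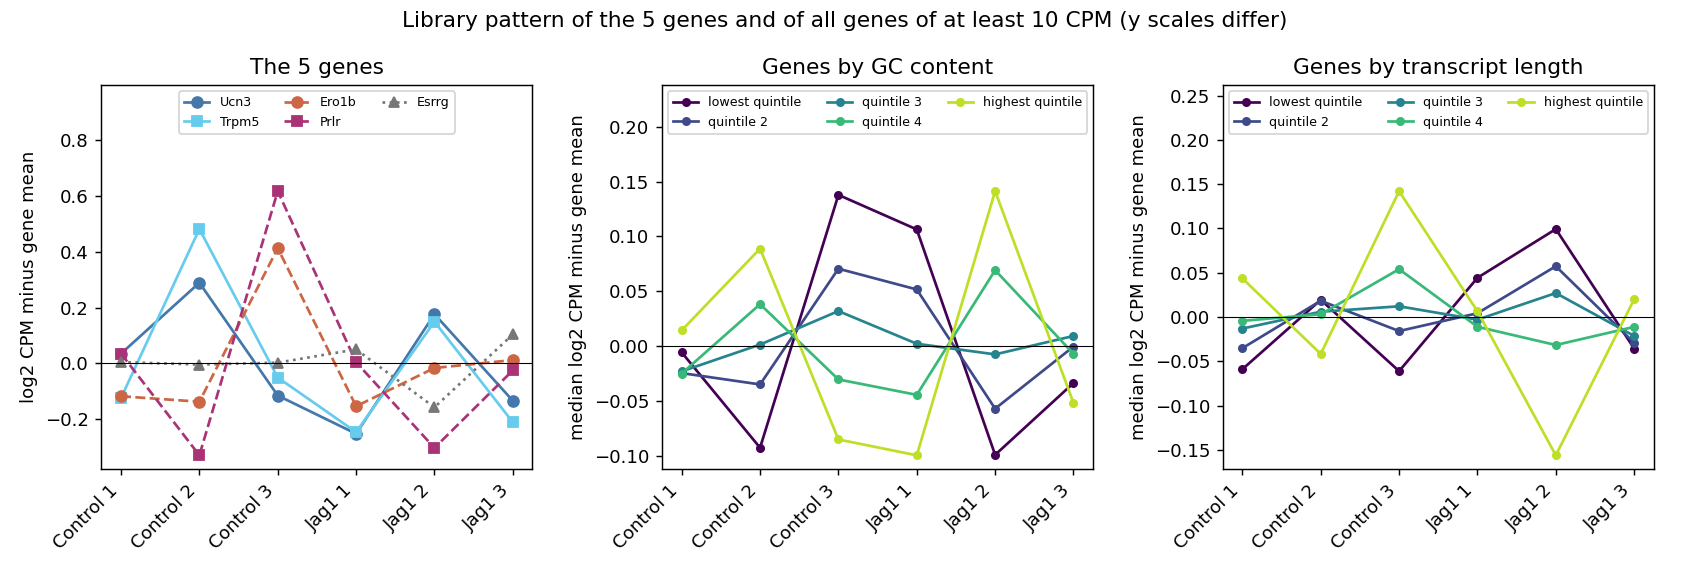
Centred log2 CPM (y axis, a separate scale for each panel) in each of the 6 libraries for the 5 genes, and the median for 5 equal groups (quintiles) of all genes of at least 10 CPM by GC content and by transcript length. Ucn3 and Trpm5 peak in Control 2, Ero1b and Prlr peak in Control 3, and the lowest GC quintile and the longest quintile both stand at 0.14 in Control 3.

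The acinar share of counts was 15.2%, 5.24% and 0.619% for the controls in order and 1.24%, 4.04% and 15.4% for the Jag1 libraries. Their part in the library pattern was not tested. With acinar markers as a covariate the log2 fold changes were -0.14 for Ucn3, -0.22 for Trpm5, -0.093 for Ero1b, -0.21 for Prlr and -0.0031 for Esrrg, and none was called by edgeR's quasi-likelihood test.

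No call was made in the wider set of maturity genes either. Of 16 other genes that mark mature beta cells, 12 had fold changes below 1, 4 above and 0 were called, with a median log2 fold change of -0.052 against -0.0041 over all genes. The groups were separate in 0 of 16, against 10.5% of all genes, and 15 had 95% intervals within 2-fold, against 80.4%. Calls were made in 0.0213% of all genes, so 0 of 16 does not set this list apart. Mafa, a transcription factor of mature beta cells, was at 249.3, 305 and 261 CPM in control and 221, 261 and 178 CPM in Jag1 islets. Jag1 2 lay level with Control 3, and the other 2 Jag1 libraries lay below every control. Its log2 fold change of -0.31 (SE 0.15, 95% interval -0.63 to 0.014) had an adjusted p of 0.955 in edgeR's quasi-likelihood test (Benjamini-Hochberg). G6pc2, the islet glucose-6-phosphatase, had 0.18 (SE 0.19), the transcription factor Nkx6-1 -0.13 (SE 0.16) and the signal Wnt4 -0.098 (SE 0.13).

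Genes of immature or dedifferentiated beta cells were counted beside them. Of 14 listed, 12 were tested, 4 with fold changes below 1, 8 above and 0 called, with a median log2 fold change of 0.051. Aldh1a3, a retinaldehyde dehydrogenase used as a marker of dedifferentiated beta cells, was at 4.56, 4.29 and 3.81 CPM in control and 2.28, 3.13 and 1.24 CPM in Jag1 islets. Every Jag1 library lay below every control, with a log2 fold change of -0.91 (SE 0.34) and an adjusted p of 0.947 in edgeR's quasi-likelihood test (Benjamini-Hochberg). It had 21 to 110 counts a library and was the 1 of 12 with separate groups, against 10.5% of all genes. The peptide gene Npy had -0.21 (SE 0.41) and the surface protein gene Cd81 0.21 (SE 0.12).

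**Figure D3:**
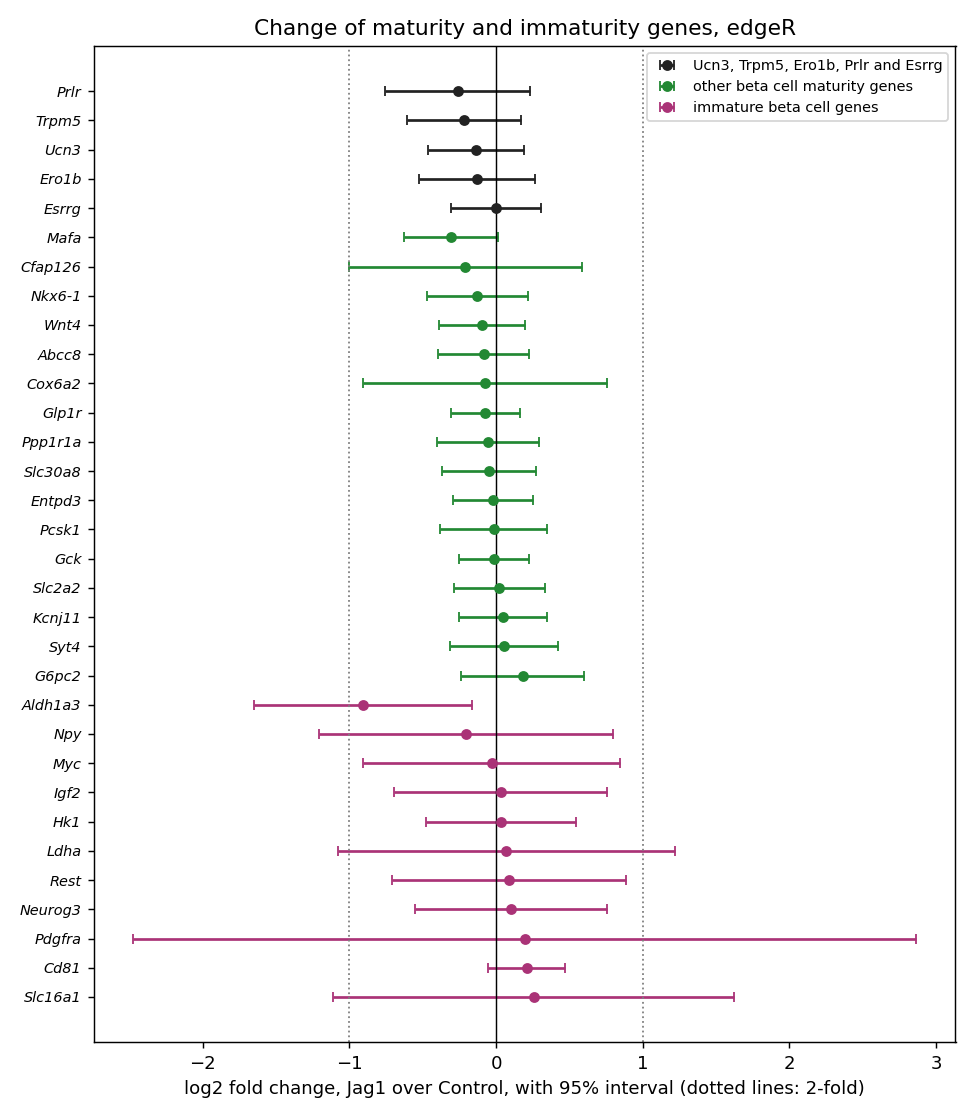
Log2 fold change of Jag1 over control islets with its 95% interval (x axis) for the 5 genes, 16 other maturity genes and 11 of the 12 tested immature beta cell genes, sorted within each set. All 5 intervals at the top lie between the dotted lines at 2-fold and include 0, and among the immature genes the interval of Aldh1a3 does not include 0 before adjustment.

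The authors' deposited table of their own limma comparison holds 14074 genes, of which 3 (0.0213%) have an adjusted p under 0.05. It lists log2 fold changes of -0.14 for Ucn3, -0.20 for Trpm5, -0.11 for Ero1b, -0.21 for Prlr and -0.026 for Esrrg. Its adjusted p is 0.929 for Ucn3, Trpm5 and Prlr, 0.963 for Ero1b and 0.9903 for Esrrg in the authors' deposited table. All 5 values differ from those of edgeR by less than the SE given here. Both fits draw on the same libraries, so this closeness is not an independent check.

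**Figure D4:**
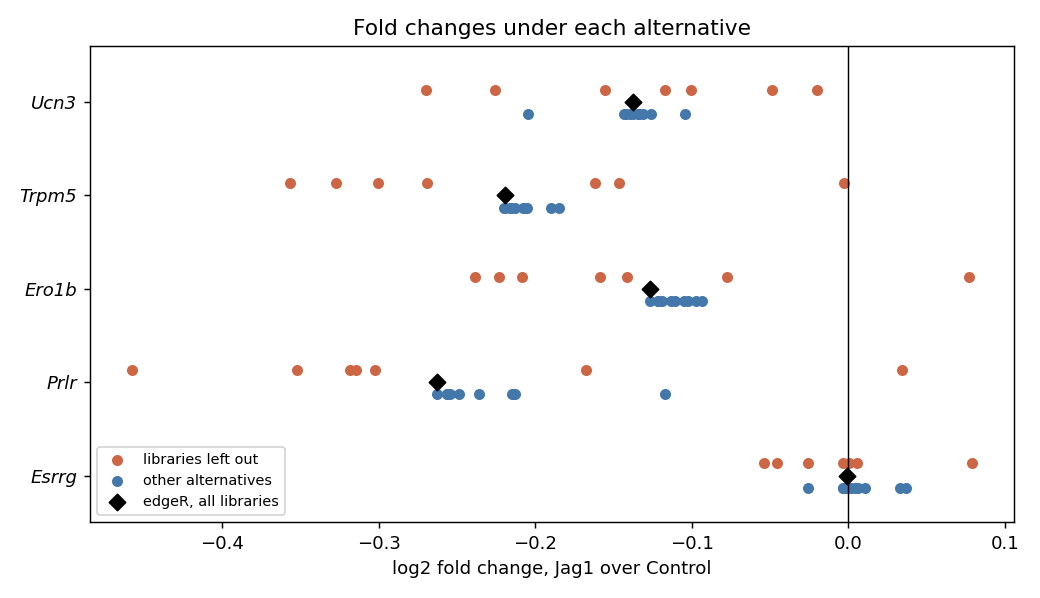
Log2 fold change of each gene (x axis) with all libraries in edgeR (diamonds), with 1 or 2 libraries left out (upper row of points) and under the other alternatives (lower row). Ucn3 and Trpm5 stay below 0 throughout, Ero1b and Prlr pass 0 only without Control 3 (0.077 and 0.034), and Esrrg lies on both sides of 0.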

How the data were processed

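RNA of 6 mouse islet libraries, 3 control and 3 Jag1, was sequenced from stranded poly(A) libraries, per the labels' protocols. The deposited table gives estimated counts per gene symbol without normalization. Per the submitters' processing notes, the tools were bcl2fastq, kallisto and limma, on build GRCm38 (mm10). The annotation and the summing of transcripts to genes are not given in the sources used here. A table of the authors' own comparison holds log2 fold changes, mean log2 expression and p-values, and 2 further statistics that the authors deposited are each taken as a score. A row that names no gene held 0.00896% to 0.0155% of the counts and was left out.

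Counts, already whole and passed through rounding, were tested in edgeR 4.0.16 (R 4.3.3): filterByExpr at a minimum count of 10, TMM scaling, the robust quasi-likelihood test over all 6 libraries without covariates, and Benjamini-Hochberg adjustment over 14073 genes at 0.05. CPM uses the TMM-scaled library size, and log2 CPM a prior count of 2. Errors are SDs over 3 libraries and SEs of log2 fold changes, and intervals are 95%. Single values had an exact 2-sided permutation test over 10 splits. Totals of 14283469 to 34348729 counts put 3 counts at 0.0853 to 0.204 CPM, which covers counting error only.

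The genes and the 20 gene lists beside them were chosen with earlier results of these data known, and no list was tested as a set. Named genes are the 5 genes, Jag1, Ins1, Ins2 and Sst, up to 4 of smallest p in each pathway list, and the 3 of most like library pattern. A gene that the rule takes is not reported here by name. Tph1 per library and the genes below the filter follow their lists. Gene positions and lengths are from GENCODE vM21, promoters from RefSeq, GC content and length were matched for 99.9% of 8927 genes, and shared sequence was searched with BLAST 2.17.0 at 85% identity over 100 bp. Alternatives were other scalings, no filter, the non-robust fit, DESeq2 1.42.0, voom in limma 3.58.1, a replicate block, acinar markers as a covariate or taken out, and libraries left out. The fit without GC and length trends was added after seeing the data. The steps were tested on simulated data. Figures were drawn with matplotlib 3.10.9.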

Additional observations from a re-analysis of the deposited data

How the results depend on the processing

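None of the 5 genes was called under any of 17 alternatives. Ucn3 and Trpm5 kept a negative log2 fold change in all 17, with -0.27 to -0.020 and -0.36 to -0.0029 when each library was left out in turn. Ero1b ran from -0.22 to 0.077 and Prlr from -0.46 to 0.034 over the left-out libraries, both positive only without Control 3. Esrrg ran from -0.054 to 0.079 and was positive with RLE size factors (0.0041), library totals only (0.033), DESeq2 (0.0018), no filter (0.011), acinar markers taken out (0.0059) and the GC and length trend removed (0.037). Relative to the beta cell reference genes, leaving out single libraries gave -0.18 to 0.064 for Ucn3, -0.23 to 0.079 for Trpm5, -0.11 to 0.13 for Ero1b, -0.34 to 0.093 for Prlr and -0.017 to 0.26 for Esrrg, which was -0.13 against Ins1 and Ins2 alone. The cause of these sign changes was not tested.

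The number of genes called was 3, and it was 11 with library totals only, 36 with DESeq2, 9 with no filter, 7 without Control 1 and Jag1 3, and 2 to 6 with each library left out (2 without Jag1 1, 6 without Jag1 2, 5 without Jag1 3). With the longest transcript as length, CPM per kilobase was 602 for Ero1b, 121 for Prlr, 21.8 for Trpm5 and 2.47 for Esrrg. The median log2 fold change of the 5 genes was -0.14 and ran from -0.21 to 0.00016 over the left-out libraries. Over the same libraries it ran from -0.11 to 0.028 for the other maturity genes and from -0.21 to 0.25 for the immature genes.

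Same-numbered libraries correlated at -0.19, 0.11 and -0.29 in their deviations from the group means. These correlations cannot exclude a pairing by number, since the acinar share also differed between libraries within both groups. Its part in them was not tested. Control 1, 2 and 3 were closest to Jag1 3, 2 and 1. With the replicate number as a block, 3 genes were called, 2 of them among the 3 called without it. The log2 fold changes with the block were -0.14 for Ucn3, -0.21 for Trpm5, -0.11 for Ero1b, -0.22 for Prlr and -0.0037 for Esrrg. Their SEs with the block were 0.11, 0.095, 0.15, 0.17 and 0.14 in that order. Without the block the SEs were 0.15, 0.17, 0.18, 0.22 and 0.14. Each group holds 3 libraries, and Esrrg has 195 to 417 counts a library.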
